A study of Mus musculus with 6 samples.

Results

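Transcripts of 10 enzymes that make serine, glycine, asparagine, proline and cysteine were followed in spheroids of D2A1, a mouse mammary tumor cell line, with and without recombinant SLURP1 (rSLURP1). The enzymes were taken by name (Asns, Phgdh, Psat1, Psph, Shmt2, Mthfd2, Aldh18a1, Pycr1, Cth and Cbs) from a table of 54146 genes, and all 10 were listed there. Phgdh, Psat1 and Psph convert the glycolytic intermediate 3-phosphoglycerate to serine. Shmt2 and Mthfd2 are mitochondrial enzymes that take a one-carbon unit from serine onto folate and oxidise it, leaving glycine. Asns transfers an amide nitrogen from glutamine to aspartate, Aldh18a1 and Pycr1 turn glutamate into proline, and Cbs and Cth pass sulfur from homocysteine through cystathionine to cysteine. Many of these genes are known targets of the transcription factor Atf4, whose mRNA is translated more when the initiation factor eIF2alpha is phosphorylated, for example by the kinase Gcn2 (Eif2ak4) when amino acids run short.

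Spheroids were grown in Matrigel in medium with fetal bovine serum and received either rSLURP1 or recombinant GST (rGST), the control protein, at 50 nM each according to the sample labels. The study's methods give harvest on day 5. There were 3 libraries of each treatment, numbered 1 to 3 in the labels, which do not say whether they came from separate cultures. The p-values below therefore measure the spread between these libraries, which may be technical. D2A1 is 1 cell line, and all 6 libraries are of bulk RNA, in which fewer cells of a type and less RNA per cell cannot be told apart. Expression is given as TPM, a relative abundance of transcripts per gene that allows for transcript length and has the same sum in every library, so a rise in some genes lowers the TPM of others. The number of reads behind a value is unknown.

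Differences are on the log2(TPM + 1) scale, rSLURP1 minus rGST, with the standard error (SE) of a limma model across the 12301 genes that reached 1 TPM in 3 or more libraries. This scale understates the change of genes with low TPM. The 10 enzymes were selected on this contrast, with its results known, so their differences are given as a description and without a p-value. With 3 libraries against 3, an exact two-sided permutation test of a single gene cannot go below p = 0.1.

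The median difference over all tested genes was -0.33 in the deposited TPM. Dividing every library by its own median-ratio size factor removes this shift and left a median difference of -0.001. Both scalings are given where they bear on a direction. Markers of cell types were checked against the label of a mammary line. Krt18, a keratin of simple epithelia, stood at 191 to 199 TPM in all 6 libraries, whereas Epcam, Krt5 and Krt14 were listed at 0 and Cdh1, the epithelial cadherin, did not pass 0.07 TPM. Krt8, the partner of Krt18, was at 1.66, 1.62 and 1.40 TPM with rGST and at 0.77, 0.51 and 0.81 TPM with rSLURP1. It was the 1 of the 2 tested epithelial markers called lower in limma. Krt8 reached 1 TPM in its rGST libraries alone, which fixed the direction of its call. The 8 fibroblast markers summed to 1008 to 1139 TPM with rGST and to 75.2 to 85.2 TPM with rSLURP1. All 5 of them that were tested (Dcn, Lum, Col1a1, Pdgfra and Pdgfrb) were lower in limma, as were 58.5% of all tested genes. Of these 5, Col1a1 reached 1 TPM in its rGST libraries alone, which fixed the direction of its call. Endothelial markers summed to at most 0.31 TPM in any library, with Kdr at 0. Leukocyte markers summed to 3.58 to 4.08 TPM with rGST and 7.85 to 10.6 TPM with rSLURP1, nearly all of it Cd68, with Adgre1 and Cd3e at 0. The 3 adipocyte markers summed to 4.76 to 8.28 TPM with rGST and 37.1 to 40.7 TPM with rSLURP1, most of it Fabp4, with Adipoq at 0.15 TPM or less. The 1 leukocyte marker tested and 1 of the 2 adipocyte markers tested were higher in limma, as were 8.66% of all tested genes. The part of these markers in the enzyme results was not tested.

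Of the 10 enzymes, 9 passed the filter on low values and Cbs did not. All 9 were higher with rSLURP1 in each of its 3 libraries than in any rGST library. They also counted as higher in limma (adjusted p-value of 0.05 or less), as did 8.66% of all tested genes, while 58.5% of tested genes counted as lower and 0 of the 9 enzymes did. With median-ratio scaling the background was 26.0% higher and 25.2% lower, and the enzymes remained 9 higher and 0 lower. Among all tested genes, 9.75% had 3 rSLURP1 libraries above 3 rGST libraries. At a difference of at least 2-fold, 6 of the 9 enzymes were higher, against 1.15% of tested genes, and 7.06% of tested genes were lower. These counts follow from how the enzymes were chosen and show nothing further about them. The median difference of the 9 was 1.19 against -0.33 for all tested genes, and 1.54 with median-ratio scaling. In rank by difference among the 12301 tested genes, the 9 ranged from Cth at 13 to Pycr1 at 348.

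**Figure D1:**
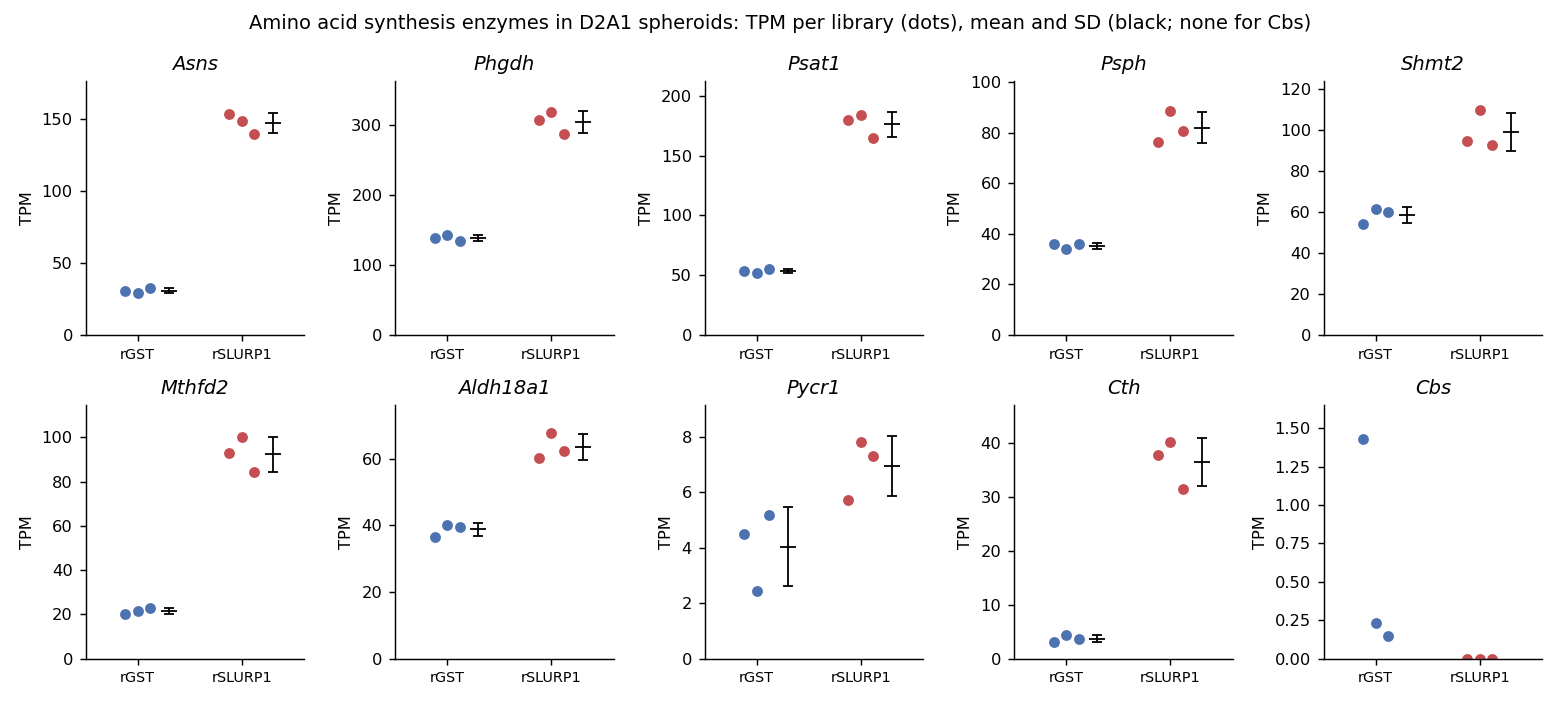
TPM of the 10 enzymes (vertical axes, each from 0 and with its own scale) in the 3 rGST and the 3 rSLURP1 libraries. Each dot is a library and the black bars are the mean and SD of 3 libraries, left out for Cbs; for 9 enzymes every rSLURP1 dot lies above every rGST dot, and for Cbs the 3 rSLURP1 dots lie at 0.

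Promoters are shown for the enzymes whose promoter holds the core letters of the C/EBP-ATF element, which Atf4 is known to bind, since Atf4 mRNA was also higher with rSLURP1. The sequences are those of RefSeq (GRCm38.p6), from 250 bases before to 50 bases after an annotated start. The letters searched were TGATGNAA, where N is any base, on both strands. Of 10 windows found for 9 of the enzymes, 2 held the motif, those of Asns and Pycr1, and of all 32851 promoter windows 1304 did (3.97%). The Asns window is chr6:7693160-7693459 and the Pycr1 window chr11:120643699-120643998, both on the minus strand and printed 5′ to 3′ along the gene, with the motif in capitals.
Asns: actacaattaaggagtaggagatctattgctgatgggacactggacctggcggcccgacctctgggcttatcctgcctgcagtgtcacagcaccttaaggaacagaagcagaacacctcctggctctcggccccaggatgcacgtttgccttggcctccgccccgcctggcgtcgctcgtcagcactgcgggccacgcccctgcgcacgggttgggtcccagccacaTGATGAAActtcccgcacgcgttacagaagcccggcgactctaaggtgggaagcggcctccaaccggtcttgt
Pycr1: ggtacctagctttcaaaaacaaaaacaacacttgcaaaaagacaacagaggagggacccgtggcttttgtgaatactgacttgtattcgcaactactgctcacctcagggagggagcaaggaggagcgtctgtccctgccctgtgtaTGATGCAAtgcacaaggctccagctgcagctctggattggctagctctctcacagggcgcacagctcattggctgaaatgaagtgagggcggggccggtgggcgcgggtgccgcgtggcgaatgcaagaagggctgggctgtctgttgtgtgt
In the Asns window the motif begins 23 bases before the start, and in the Pycr1 window 103 bases before it. The windows of Phgdh, Psat1, Psph, Shmt2, Mthfd2, Aldh18a1 and Cbs did not hold these letters in this stretch, and that of Cth was not analysed here. Among the other genes of the 5 lists, 3 of 67 windows held the motif (4.48%), those of Atf3, Got1 and Nupr1. A match describes the letters and is not a measured binding site.

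Serine synthesis started from the most abundant transcript of the group. Phgdh, 3-phosphoglycerate dehydrogenase, carries out the committed step from glycolysis. Its gene (ENSMUSG00000053398.11) lies on the minus strand at chr3:98313170-98339990 (GRCm38, GENCODE M21, as for all positions below except promoters). Phgdh was at 138, 142 and 134 TPM in rGST libraries 1 to 3 and at 307, 318 and 286 TPM in rSLURP1 libraries 1 to 3. The lowest rSLURP1 value was well above the highest rGST value, and the mean went from 138 ± 4.03 to 304 ± 16.2 TPM (SD, n = 3), 2.20-fold higher, with a difference of 1.13 (SE 0.049).

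Psat1, the aminotransferase that takes its nitrogen from glutamate (ENSMUSG00000024640.9, minus strand, chr19:15904678-15947337), was at 53.8, 52.2 and 55.1 TPM with rGST and at 180.1, 184 and 164.5 TPM with rSLURP1. The groups were far apart, and the mean rose from 53.7 ± 1.49 to 176 ± 10.2 TPM, 3.28-fold, with a difference of 1.69 (SE 0.053). Psph, the phosphatase that releases serine (ENSMUSG00000029446.14, minus strand, chr5:129765558-129787449), was at 35.9, 34.0 and 35.9 TPM with rGST and at 76.4, 88.5 and 80.6 TPM with rSLURP1. Its 3 rGST values lay within 2 TPM of each other, whereas the rSLURP1 values spread more widely without coming near them. The mean was 35.3 ± 1.08 TPM with rGST and 81.8 ± 6.14 TPM with rSLURP1, 2.32-fold higher, with a difference of 1.19 (SE 0.063).

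Psat1 thus differed by a larger factor than the steps before and after it. Within a library, the ratio of Psat1 to Phgdh TPM averaged 0.390 with rGST and 0.580 with rSLURP1, 1.49-fold higher. The ratio of Psph to Phgdh averaged 0.256 with rGST and 0.270 with rSLURP1, 1.055-fold higher, and its values overlapped between the treatments. These ratios do not depend on how a library is scaled.

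Phgdh has near-identical copies in the mouse genome, among them Gm9347, Gm7901 and Phgdh-ps1. In GENCODE M21, 8 other genes matched it at 95% identity or more over at least 300 bases, so reads may have been split between them. The 8 copies summed to 25.7, 25.1 and 26.2 TPM in the rGST libraries and to 55.6, 56.1 and 51.5 TPM in the rSLURP1 libraries. They took 14.99% to 16.4% of the joint TPM with rGST and 14.99% to 15.3% with rSLURP1. Phgdh and its copies together were 2.19-fold higher with rSLURP1, close to the value for Phgdh alone. The other 9 enzymes had no such copy.

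The mitochondrial folate enzymes came next in the pathway. Shmt2, serine hydroxymethyltransferase of mitochondria (ENSMUSG00000025403.5, minus strand, chr10:127517123-127522444), was at 54.0, 61.5 and 59.8 TPM with rGST and at 94.6, 109.8 and 92.6 TPM with rSLURP1. The groups did not overlap and the mean went from 58.4 ± 3.91 to 99.0 ± 9.39 TPM, 1.70-fold higher, with a difference of 0.75 (SE 0.079). Mthfd2, a mitochondrial methylenetetrahydrofolate dehydrogenase and cyclohydrolase (ENSMUSG00000005667.8, minus strand, chr6:83305691-83325908), was at 20.1, 21.5 and 22.8 TPM with rGST. With rSLURP1 it was at 92.9, 99.9 and 84.1 TPM. Every treated library held over 3 times the highest control value, and the mean rose from 21.4 ± 1.34 to 92.3 ± 7.92 TPM, 4.30-fold, with a difference of 2.05 (SE 0.076).

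Cytosolic partners of these enzymes were lower with rSLURP1. Shmt1, the cytosolic serine hydroxymethyltransferase, was at 15.7, 15.2 and 15.4 TPM with rGST and at 9.01, 9.77 and 10.8 TPM with rSLURP1, a difference of -0.60 (SE 0.082, adjusted p = 0.000466 in limma). Mthfd1, the trifunctional cytosolic folate enzyme, was at 41.0, 42.0 and 43.6 TPM with rGST and at 26.1, 24.8 and 23.3 TPM with rSLURP1, a difference of -0.75 (SE 0.060, adjusted p = 3.39e-05 in limma). Both were also lower with median-ratio scaling, at -0.27 and -0.40. Shmt1 was no longer called with quantile normalization (-0.20), or with a correction for length and GC content and a replicate block (-0.23). For both genes all 3 treated libraries were below all 3 controls.

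Set against these partners within each library, the mitochondrial forms gained. The ratio of Shmt2 to Shmt1 TPM was 3.43, 4.05 and 3.89 in the rGST libraries and 10.5, 11.2 and 8.56 in the rSLURP1 libraries, 2.66-fold higher on average. The ratio of Mthfd2 to Mthfd1 was 0.490, 0.510 and 0.522 with rGST and 3.55, 4.02 and 3.60 with rSLURP1, 7.34-fold higher. Mthfd1 thus had the higher TPM of the pair with rGST in all 3 libraries, and Mthfd2 with rSLURP1 in all 3. A further pair moved the same way. Aldh1l2, the mitochondrial 10-formyltetrahydrofolate dehydrogenase, was at 5.56, 5.84 and 6.15 TPM with rGST and at 32.5, 31.0 and 26.8 TPM with rSLURP1, 5.14-fold higher (difference 2.18, SE 0.089, adjusted p = 1.8e-06 in limma). Its cytosolic counterpart Aldh1l1 was at 2.86, 2.27 and 1.82 TPM with rGST and at 0.12, 0.16 and 0.36 TPM with rSLURP1 (difference -1.44, SE 0.18, adjusted p = 0.000286 in limma). Aldh1l1 passed the filter on low values through its rGST libraries alone, which fixed the direction of its call.

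**Figure D2:**
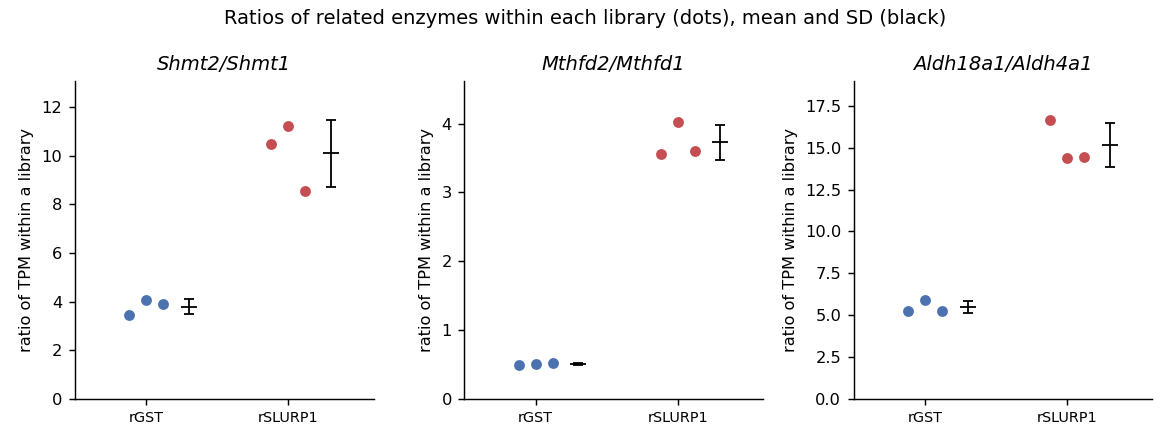
Ratio of the TPM of an enzyme to that of a related enzyme within the same library (vertical axes, no unit, each from 0) for 3 pairs, in the 3 rGST and the 3 rSLURP1 libraries. Dots are libraries and black bars are the mean and SD of 3; all rSLURP1 dots lie above all rGST dots in each pair, and Mthfd2/Mthfd1 passes 1 in the rSLURP1 libraries alone.

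Not all mitochondrial folate genes were higher. Mthfd1l, the mitochondrial formate-tetrahydrofolate ligase, was at 37.3, 40.8 and 34.0 TPM with rGST and at 34.8, 34.4 and 30.6 TPM with rSLURP1, ranges that overlapped. Its difference was -0.16 (adjusted p = 0.119 in limma) as deposited and 0.18 (adjusted p = 0.0904 in limma) with median-ratio scaling. It counted as higher with a correction for length and GC content (0.26, adjusted p = 0.0318 in limma) and as lower without rGST library 3 (-0.225, adjusted p = 0.046 in limma). Mthfd2l, the paralog of Mthfd2, was lower in every treated library, at 20.8 to 22.5 TPM against 27.7 to 29.9 TPM, a difference of -0.38 (adjusted p = 0.000933 in limma) that came to -0.04 with median-ratio scaling. Amt, a subunit of the glycine cleavage system, was at 8.06, 4.18 and 7.15 TPM with rGST and at 2.91, 2.30 and 2.64 TPM with rSLURP1, a difference of -1.01 (SE 0.21, adjusted p = 0.00376 in limma). Gldc, the decarboxylase of the same system, did not pass 0.20 TPM in any library and was not tested. Srr, serine racemase, had a difference of -0.33 (adjusted p = 0.0112 in limma) as deposited and 0.01 with median-ratio scaling.

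In the list of 26 other one-carbon and glycine genes, 21 were tested, of which 2 were higher, 14 were lower and 5 were not called. The shares were 9.52% higher and 66.7% lower, against 8.66% and 58.5% of all tested genes. With median-ratio scaling 4 were higher and 6 lower. The list's median difference was -0.33, the same as that of all tested genes.

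Asns, asparagine synthetase, differed by the second largest factor of the 9, after Cth. The gene (ENSMUSG00000029752.12) lies on the minus strand at chr6:7675169-7693254. Its TPM was 30.5, 29.5 and 32.6 with rGST and 153.6, 149 and 139.8 with rSLURP1. Values were tight within each treatment and far apart between them, with a mean of 30.9 ± 1.59 against 147 ± 6.99 TPM, 4.77-fold higher, and a difference of 2.22 (SE 0.056). Asns was the sixth of the 10 enzymes by level with rGST and the third with rSLURP1.

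Of the genes around asparagine synthesis, Glul and Asl were lower under both scalings. Glul, glutamine synthetase, makes the nitrogen donor of Asns from glutamate, and was at 68.6, 64.7 and 64.4 TPM with rGST and at 20.8, 23.6 and 22.6 TPM with rSLURP1. It fell 2.95-fold (difference -1.52, SE 0.061, adjusted p = 1.65e-06 in limma; -1.17 with median-ratio scaling). The ratio of Asns to Glul TPM within a library averaged 0.470 with rGST and 6.62 with rSLURP1, 14.1-fold higher. Got2, the mitochondrial aspartate aminotransferase, was the most abundant pathway gene named here with rGST, at 207 to 211 TPM, and was at 181 to 190.4 TPM with rSLURP1. Its difference was -0.18 (adjusted p = 0.00335 in limma) as deposited. With median-ratio scaling the difference of Got2 was 0.17, and it counted as higher (adjusted p = 0.002 in limma). Asnsd1, which carries an asparagine synthetase domain, was at 34.4 to 42.4 TPM and 36.0 to 36.6 TPM in overlapping ranges (difference -0.10, adjusted p = 0.306 in limma). With median-ratio scaling it counted as higher (0.25, adjusted p = 0.0295 in limma). Without rGST library 3 it counted as lower (-0.18, adjusted p = 0.0302 in limma). Asl, argininosuccinate lyase, was at 145 to 147 TPM with rGST and at 61.1 to 69.0 TPM with rSLURP1 (difference -1.18, adjusted p = 2.85e-06 in limma). Of the 13 genes listed for aspartate, asparagine and glutamate, 11 were tested and 1 was higher, 8 lower and 2 not called. The shares were 9.09% higher and 72.7% lower, against 8.66% and 58.5% of all tested genes. With median-ratio scaling 4 were higher and 4 lower.

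The enzymes of proline synthesis differed by less than most of the others. Aldh18a1, pyrroline-5-carboxylate synthase (ENSMUSG00000025007.13, minus strand, chr19:40550257-40588463), was at 36.6, 40.2 and 39.6 TPM with rGST and at 60.2, 67.7 and 62.4 TPM with rSLURP1. Its groups were apart by more than the range within either, with means of 38.8 ± 1.92 and 63.4 ± 3.84 TPM, 1.63-fold higher, and a difference of 0.69 (SE 0.062). Pycr1, a mitochondrial pyrroline-5-carboxylate reductase (ENSMUSG00000025140.15, minus strand, chr11:120635712-120643769), was at 4.50, 2.45 and 5.20 TPM with rGST and at 5.73, 7.83 and 7.31 TPM with rSLURP1. The lowest treated library was close to the highest control, and the mean was 4.05 ± 1.43 against 6.96 ± 1.09 TPM, 1.72-fold higher, with a difference of 0.69 and the largest SE of the 9 enzymes, 0.22. Without rGST library 2, the lowest, the difference was 0.44, and leaving out rSLURP1 library 2 or 3 left Pycr1 uncalled, so that 8 of the 9 enzymes counted as higher. The Pycr1 promoter is shown above with that of Asns, and a link between the motif and the size of a difference was not tested. The cytosolic reductase Pycr3, listed as Pycrl, had a difference of -0.10 (adjusted p = 0.188 in limma) as deposited. With median-ratio scaling it counted as higher (0.24, adjusted p = 0.0221 in limma).

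Enzymes of the reverse route, from proline and ornithine back to glutamate, were lower in the deposited TPM, and Oat was the one of the 3 named that was called lower under every alternative. Oat, ornithine aminotransferase, was at 56.2 to 59.2 TPM with rGST and 29.8 to 35.0 TPM with rSLURP1 (difference -0.81, SE 0.065, adjusted p = 3.61e-05 in limma). Aldh4a1, which oxidises pyrroline-5-carboxylate to glutamate, was at 6.85 to 7.54 TPM and at 3.61 to 4.71 TPM (difference -0.64, SE 0.11, adjusted p = 0.00149 in limma), and was not called with quantile normalization (-0.25) or with a correction for length and GC content (-0.18). Prodh, proline dehydrogenase, was low, at 1.67, 1.25 and 2.13 TPM with rGST and 0.85, 0.85 and 0.57 TPM with rSLURP1 (difference -0.60, adjusted p = 0.0179 in limma). It was not called with median-ratio scaling (-0.42), quantile normalization (-0.26) or a correction for length and GC content (-0.13). Nor was it called without rGST library 3 or rSLURP1 library 3 (-0.48 and -0.52). Prodh passed the filter on low values through its rGST libraries alone, which fixed the direction of its call. The ratio of Aldh18a1 to Aldh4a1 TPM, a forming against an oxidising enzyme, was 5.27, 5.88 and 5.25 with rGST and 16.7, 14.4 and 14.4 with rSLURP1, 2.77-fold higher. Odc1, ornithine decarboxylase of polyamine synthesis, rose from 144, 155 and 166 TPM with rGST to 345, 368 and 319 TPM with rSLURP1 (2.22-fold, difference 1.14, SE 0.069, adjusted p = 9.52e-06 in limma). Arg2, mitochondrial arginase, was at 0.10, 0.23 and 0.58 TPM with rGST and at 2.70, 3.99 and 3.34 TPM with rSLURP1 (difference 1.74, SE 0.19, adjusted p = 0.000166 in limma). Arg2 passed the filter on low values through its rSLURP1 libraries alone, which fixed the direction of its call. Among the 11 genes listed for proline and ornithine, 9 were tested, of which 3 were higher, 5 lower and 1 not called. The shares were 33.3% higher and 55.6% lower, against 8.66% and 58.5% of all tested genes. With median-ratio scaling 5 were higher and 3 lower.

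The 2 enzymes of transsulfuration were unlike each other. Cth, cystathionine gamma-lyase (ENSMUSG00000028179.12, minus strand, chr3:157894248-157925077), was at 3.08, 4.43 and 3.60 TPM with rGST and at 37.7, 40.0 and 31.5 TPM with rSLURP1. This was the largest difference of the 9 enzymes tested, with a mean of 3.70 ± 0.68 against 36.4 ± 4.42 TPM, 9.83-fold higher, and a difference of 2.995 (SE 0.13). Cbs, cystathionine beta-synthase, the step before it (ENSMUSG00000024039.14, minus strand, chr17:31608894-31637238), was at 1.43, 0.23 and 0.15 TPM with rGST and listed at 0 in all 3 rSLURP1 libraries. Since depth is unknown, a listing at 0 gives no bound on its level, and no difference is given. In the list of 15 genes for methionine, cysteine and glutathione, 12 were tested and 2 were higher, 7 lower and 3 not called. The shares were 16.7% higher and 58.3% lower, against 8.66% and 58.5% of all tested genes. With median-ratio scaling 5 were higher and 2 lower.

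The order of levels changed with treatment. With rGST the order was Phgdh, Shmt2, Psat1, Aldh18a1, Psph, Asns, Mthfd2, Pycr1, Cth and Cbs by mean TPM, and only the neighbours Shmt2 and Psat1, and Pycr1 and Cth, overlapped in their ranges over libraries. With rSLURP1 it was Phgdh, Psat1, Asns, Shmt2, Mthfd2, Psph, Aldh18a1, Cth, Pycr1 and Cbs, and the overlaps were between Shmt2 and Mthfd2 and between Mthfd2 and Psph. Phgdh was first in both and held 34.5% to 36.6% of the summed TPM of the 10 enzymes with rGST and 29.9% to 30.4% with rSLURP1. The 10 enzymes summed to 378, 388 and 389 TPM in the rGST libraries and to 1008, 1064 and 949 TPM in the rSLURP1 libraries. Among the treated libraries, library 2 held the highest value of 8 of the 9 tested enzymes and library 3 the lowest of 6. Among the controls no library stood out in this way, with the highest value of 1, 4 and 4 enzymes in libraries 1 to 3.

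Atf4 itself was at 111, 115 and 122 TPM with rGST and at 370.2, 395 and 348 TPM with rSLURP1. It was 3.20-fold higher (difference 1.67, SE 0.058, adjusted p = 8.22e-07 in limma). With median-ratio scaling the difference of Atf4 was 2.02. Of the related factors, Atf5 was at 58.2 to 66.6 TPM with rGST and rose to 162 to 171 TPM with rSLURP1 (difference 1.39, adjusted p = 2.31e-06 in limma). Atf3, an early stress-response factor, rose from 7.07, 9.36 and 6.84 TPM to 27.3, 31.8 and 19.5 TPM (difference 1.62, adjusted p = 0.000179 in limma). In the opposite direction, Nupr1, a stress-induced chromatin protein, was at 135 to 146 TPM with rGST and fell to 57.6 to 67.4 TPM with rSLURP1 (difference -1.16, adjusted p = 6.18e-06 in limma), and Eif2ak2, the double-stranded RNA kinase PKR, was at 43.2 to 46.5 TPM and fell to 17.4 to 19.8 TPM (difference -1.20, adjusted p = 7.38e-06 in limma). Of the 13 genes for eIF2alpha kinases, Atf4 and its partners, all were tested, and 6 were higher, 6 lower and 1 not called. The shares were 46.15% in each direction, against 8.66% higher and 58.5% lower among all tested genes. With median-ratio scaling 7 were higher and 4 lower. TPM measures the amount of mRNA and not its translation or the phosphorylation of eIF2alpha.

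**Figure D3:**
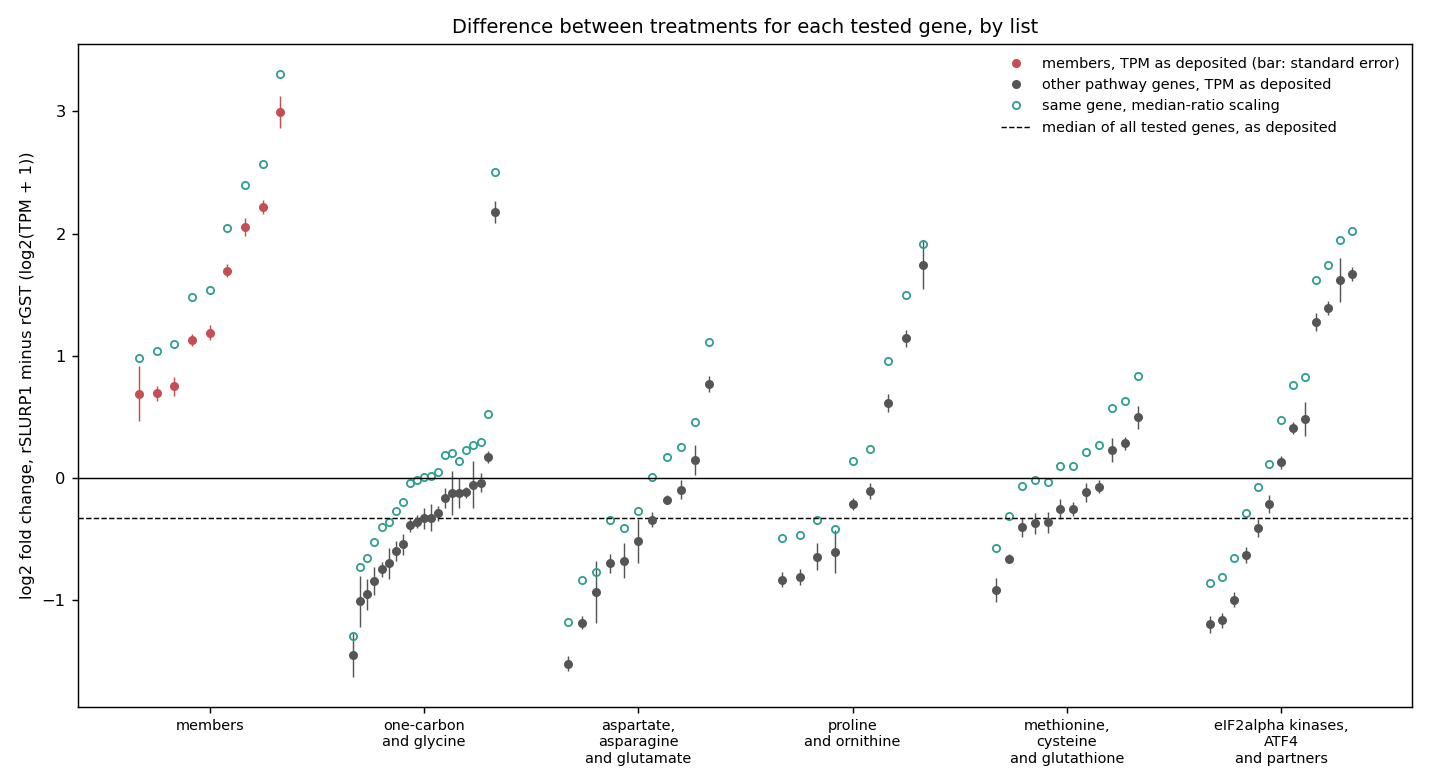
Difference between treatments (vertical axis, rSLURP1 minus rGST on the log2(TPM + 1) scale) for each tested gene, grouped along the horizontal axis by list and sorted within it. Filled points with bars are deposited TPM with the SE, open circles the same genes after median-ratio scaling, and the dashed line is the median of all tested genes, -0.33; all 9 enzymes lie above 0 under both scalings, while each other list has points on both sides of it.

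Over the 5 lists together, 78 other genes of these routes were listed and 66 were tested. Of these, 14 were higher (21.2%), 40 lower (60.6%) and 12 not called, with a median difference of -0.31. Among all tested genes 8.66% were higher and 58.5% lower, with a median of -0.33. The share of lower calls was thus near that of all tested genes, and the share of higher calls was above it. The lists were chosen with earlier results of these data known, so these shares are a description. With median-ratio scaling 25 were higher (37.9%), 19 lower (28.8%) and 22 not called, against 26.0% higher and 25.2% lower among all tested genes.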

How the data were processed

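RNAseq of D2A1 spheroids was analysed in 6 libraries, grouped by the sample labels. The authors deposited TPM estimated per gene by RSEM, after trimming by Cutadapt and alignment by STAR to mm10, in a column for each library. The submitters' processing notes list Cutadapt 1.18, STAR 2.5.2b and RSEM 1.3.3. Library preparation is TruSeq mRNA in the labels but Smart-seq2 in the study's methods, and the data do not settle which. The methods name GENCODE M12. Of 54146 identifiers, 54079 matched GENCODE M21, the source of coordinates, without the version.

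On log2(TPM + 1), limma 3.58.1 (R 4.3.3; lmFit, eBayes with trend) compared rSLURP1 with rGST for 12301 genes at 1 TPM or more in at least 3 libraries, without a block, with Benjamini-Hochberg adjustment over all of them. The test was checked on simulated data in which few genes changed and the median gene did not shift. It was not checked at a shift like that of the deposited TPM. Copies were sought among GENCODE transcripts, and ratios are descriptions without a test. Python 3.11.15 with pandas 2.3.3 and matplotlib 3.10.9 made the tables and figures.

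The enzymes and gene lists were chosen with earlier results of these data known. Named were the 10 enzymes, related genes fixed by their place in the pathway, and up to 3 genes of each list per direction with the largest change at a 2-fold change or more and an adjusted p-value of 0.05 or less. Some of the genes fixed by their place in the pathway are not reported here. Alternatives were median-ratio scaling, quantile normalization, TPM rescaled without mitochondrially encoded genes, a pseudocount of 0.1, the filter dropped or asked of all 6 libraries, eBayes without trend, a replicate block and each library left out in turn. A loess correction (span 0.3) for length and GC of the longest transcript, with and without the block, was added after the data were seen.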

Additional observations from a re-analysis of the deposited data

How the results depend on the processing

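Of the 6 counts of calls, those over all tested genes moved with the scaling. Genes called higher went from 1065 to 3198 (median ratio), 3111 (quantile), 3320 (length and GC corrected by loess) and 3095 (the same with the replicate block), and genes called lower from 7200 to 3094, 2905, 2690 and 2468. The other genes of the 5 lists called higher went from 14 to 25, 23 and 26 under the first 3 of these, and those called lower from 40 to 19, 16, 17 and 18 under the 4. The enzymes called higher were 9 under each alternative except 8 (without Pycr1) when rSLURP1 library 2 or 3 was left out, and 1 enzyme, Cbs, was called lower with no filter, where limma warned that most of the residual variances were 0. Leaving out each library in turn gave 906 to 1020 tested genes higher, 6605 to 6999 lower, 8 to 9 enzymes higher and 0 lower, and 13 to 15 listed genes higher and 35 to 38 lower.

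Of the 23 other named genes that were tested, 12 kept direction and call in all 16 alternatives, and Aldh1l1 and Arg2 did so in the 15 that tested them, being too low for the filter in all 6 libraries. The direction turned to higher for 6, in the order median-ratio, quantile, length and GC, and the same with block: Mthfd1l (0.185, 0.197, 0.26, 0.26), Srr (0.0071, 0.0703, 0.0584, 0.0584), Got2 (0.174, 0.0344, 0.18, 0.18), Asnsd1 (0.25, 0.259, 0.228, 0.228), Pycrl (0.239, 0.267, 0.113, 0.113), and Mthfd2l with quantile normalization (0.000106). The cause was not tested beyond the shift of the median gene, which was -0.33 as deposited and -0.001, 0.02 and 0.03 under the first 3. Same-numbered libraries did not deviate together (correlations of deviations from the group means -0.0556, -0.034 and -0.0607). This cannot show whether they were cultured or processed together. A replicate block alone gave 1008 genes higher and 6954 lower, 9 enzymes higher and 0 lower, and 14 listed genes higher and 37 lower. TPM keeps no read depth, so the precision of low values such as those of Cbs, Pycr1 and Arg2 cannot be given.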

Other observations

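The 5 genes in this paragraph were chosen after their values were seen. Gpt2, the mitochondrial alanine aminotransferase, was at 31.1, 27.7 and 29.9 TPM with rGST and at 50.2, 53.9 and 49.1 TPM with rSLURP1, 1.73-fold higher (difference 0.77, SE 0.062, adjusted p = 3.67e-05 in limma). Nadk2, the mitochondrial NAD kinase that supplies NADPH for proline synthesis, was at 25.9, 27.6 and 30.1 TPM with rGST and at 42.7, 46.1 and 40.7 TPM with rSLURP1, 1.55-fold higher (difference 0.61, SE 0.074, adjusted p = 0.000239 in limma). Slc25a32, the folate carrier of the mitochondrial membrane, moved the other way and was at 14.8, 11.5 and 14.8 TPM with rGST and at 7.30, 6.60 and 7.62 TPM with rSLURP1 (difference -0.84, SE 0.11, adjusted p = 0.000443 in limma). Eif2ak4, the kinase Gcn2 that senses uncharged tRNA, was at 33.2 to 34.9 TPM with rGST and 15.7 to 17.4 TPM with rSLURP1, 2.05-fold lower (difference -0.99, SE 0.061, adjusted p = 1.03e-05 in limma). Ddit3, a transcription factor downstream of Atf4, was at 26.2 to 30.1 TPM with rGST and 64.3 to 74.2 TPM with rSLURP1, 2.47-fold higher (difference 1.27, SE 0.073, adjusted p = 7.72e-06 in limma).

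Got1, the cytosolic aspartate aminotransferase, was listed at 0, 0.07 and 0.05 TPM with rGST and at 0, 0 and 0.04 TPM with rSLURP1, beside 181 to 211 TPM for its mitochondrial counterpart Got2. No near-identical copy of Got1 was found in GENCODE M21 by the search used for Phgdh.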
